A study of Homo sapiens with 24 samples.

Results

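VEGFA, ADM, STC1, STC2, VEGFB and VEGFC are 6 genes of secreted proteins, taken by their symbols from the 58735 genes in each of the 2 count tables of the series. All 6 matched 1 row in both tables, and all 6 passed the filter on low counts, which kept 19952 genes. They were measured by mRNA sequencing in HEK293T cells, a human embryonic kidney line, with 4 libraries in each of 6 groups. The groups were MIR210-KO, MIR210HG-KO and WT cells held for 24 h at 1% oxygen (hypoxia), and MIR210-KO, MIR210HG-KO and WT cells held for 24 h at 21% oxygen (normoxia). All grew in high-glucose DMEM with 10% fetal bovine serum. miR-210 is the microRNA made from MIR210, which lies within the non-coding host gene MIR210HG. Whether each edited line is 1 clone, and whether replicate libraries came from separate cultures, is not given, so the p values measure the spread between libraries, which may be technical. Each oxygen level has its own count table, so oxygen and table cannot be told apart.

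When oxygen falls, the prolyl hydroxylases that mark the HIF-α proteins for degradation slow down, HIF accumulates, and it turns on genes through short DNA elements with a CGTG core. VEGFA, the growth factor that draws new vessels toward poorly supplied tissue, and ADM, the precursor of the vasodilator peptide adrenomedullin, are textbook members of that programme. The stanniocalcins STC1 and STC2 are secreted glycoproteins that inhibit the PAPP-A proteases of the insulin-like growth factor axis, and STC2 is also induced by the ATF4 branch of the stress response. VEGFB, a ligand of FLT1, and VEGFC, the lymphatic growth factor that binds FLT4, are relatives of VEGFA that HIF is not generally known to induce. miR-210 is itself induced by HIF, and its mature strand is shown because it is the product of the edited locus.

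hsa-miR-210-3p: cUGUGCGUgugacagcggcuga

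The capitals mark the seed, bases 2 to 8, in the RefSeq sequence of GRCh38.p14 at chr11:568112-568133 on the minus strand. The 7 bases that pair with this seed, ACGCACA, occur in none of the 3' UTRs of the 6 genes, taken as the longest annotated in GENCODE for each. Of 19146 genes with such a UTR, 591 (3.09%) hold the match. A missing match says only that these letters are not in these UTRs. The level of the mature strand is outside what mRNA libraries measure.

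The libraries held 25556776 to 37858947 counts each. MIR210HG had 0 counts in all 8 MIR210HG-KO libraries, and 52 to 780 in the MIR210-KO libraries, against 125 to 765 in the WT libraries over both oxygen levels. The MIR210 row, whose few reads cannot be told from those of the host transcript, summed to 33 counts in MIR210-KO and 0 in MIR210HG-KO, against 30 in WT, in hypoxia, so the MIR210-KO label was not checked by these counts. The endothelial markers PECAM1, CDH5, TEK, VWF and EMCN were all under 1 CPM in every library, summing to 0.0746 to 0.458 CPM. Of 4 blood markers, PTPRC, CD3E and HBB were under 1 CPM in every library and CD14 was not. Of the fibroblast markers DCN, LUM, COL1A1 and PDGFRA only DCN was, and the set summed to 15.5 to 36.1 CPM. The 6 markers of the HEK293 line were all present. These line markers summed to 640 to 696 CPM in MIR210-KO and 292 to 307 CPM in MIR210HG-KO, against 559 to 676 CPM in WT, in hypoxia. In normoxia they summed to 524 to 550 CPM in MIR210-KO and 203 to 214 CPM in MIR210HG-KO, against 342 to 365 CPM in WT, and their part in the results was not tested. Hypoxia WT libraries 1 and 3 had relatively fewer counts in long genes than libraries 2 and 4 (a log2 balance of long over short genes of 0.0035 and -0.08, against 0.32 and 0.23). Over all genotypes this balance ran from -0.08 to 0.32 in hypoxia and from -0.29 to -0.05 in normoxia, so it went largely with the oxygen level.

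Levels are given in CPM, counts relative to the library's total, on library sizes scaled by TMM, which corrects for a few genes taking up reads. In bulk RNA, fewer cells that make a transcript and less of it per cell cannot be told apart. Differences are log2 fold changes ± their standard error from edgeR's quasi-likelihood test, and a gene is called at a Benjamini-Hochberg adjusted p of 0.05 or less over all 19952 genes.

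**Figure D1:**
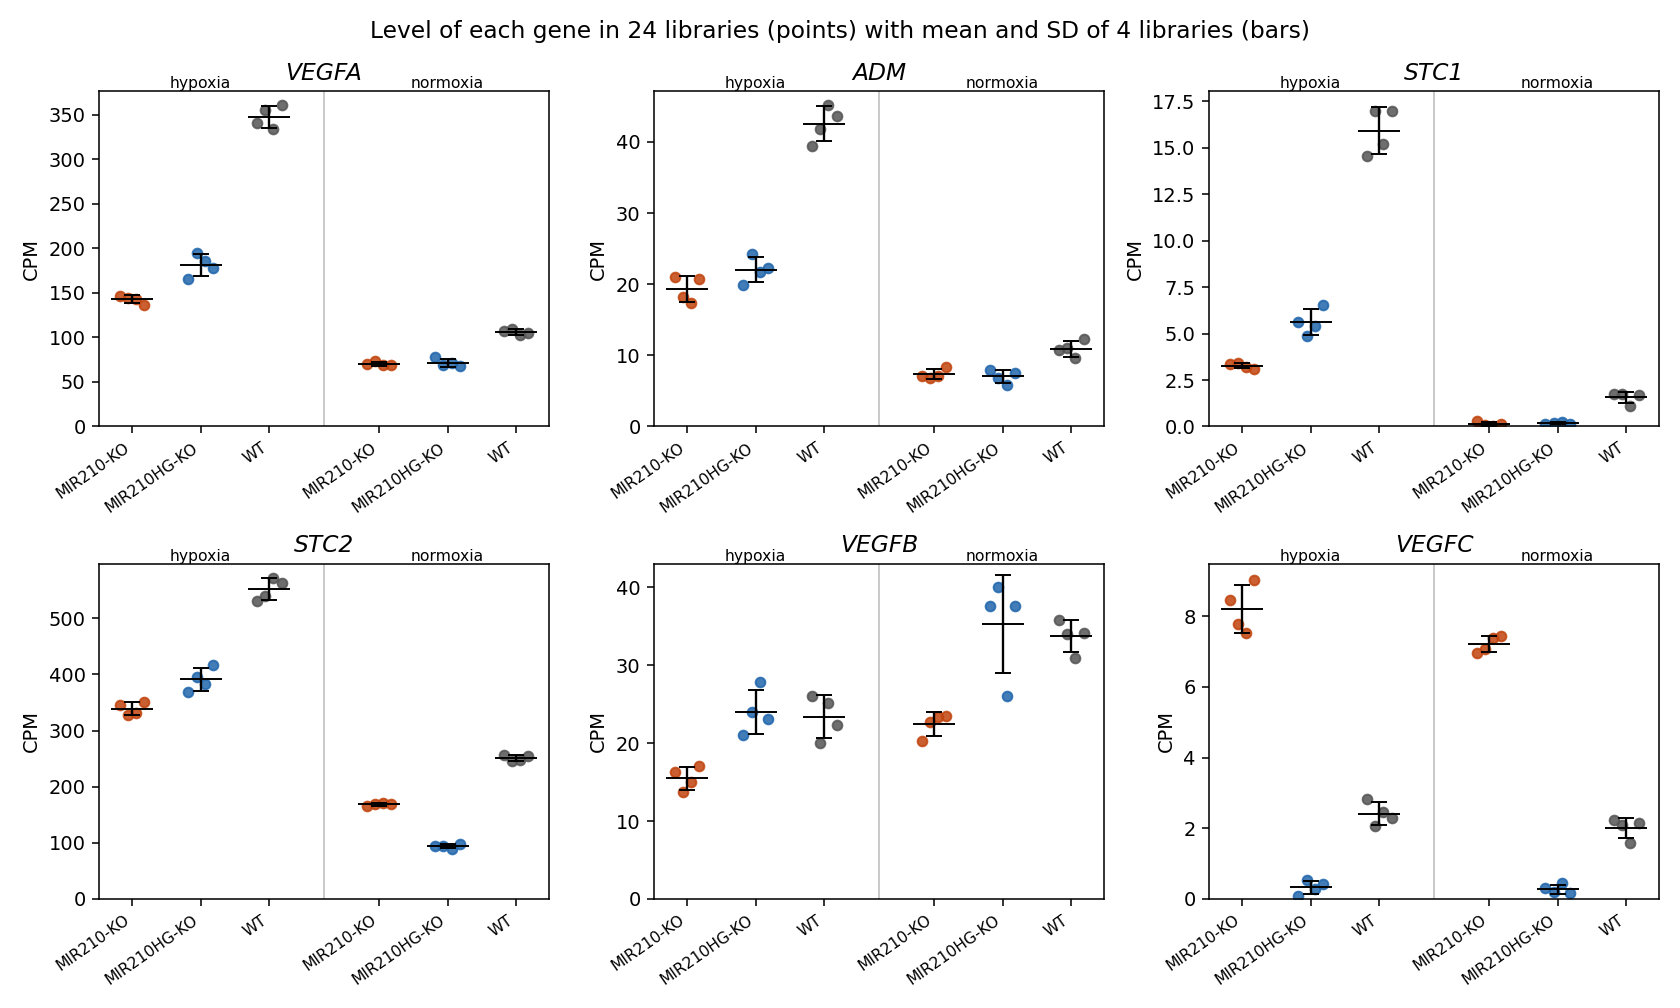
Level (CPM, linear axis from 0) of the 6 genes in each library, with points for libraries and bars for the mean and SD of 4. VEGFA, ADM, STC1 and STC2 are highest in hypoxia WT, VEGFB is lower in hypoxia than in normoxia, and VEGFC separates by genotype at both oxygen levels.

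Lowered oxygen raised VEGFA, ADM, STC1 and STC2 and lowered VEGFB in every genotype, while VEGFC was called in none. Of all genes, 58.7% were called in MIR210-KO (29.3% higher and 29.5% lower) and 54.1% in MIR210HG-KO (25.7% higher and 28.3% lower), against 60.3% in WT (29.6% higher and 30.7% lower). A call is thus common, and the sizes carry the description.

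Both knockouts held less VEGFA, ADM, STC1 and STC2 than WT at both oxygen levels. MIR210-KO also held less VEGFB and more VEGFC than WT, and MIR210HG-KO held less VEGFC, with VEGFB not called. In hypoxia this made 5 of the 6 genes lower and 1 higher in MIR210-KO over WT, where 55.9% of all genes were called (27.7% lower and 28.2% higher), and 5 lower and 0 higher in MIR210HG-KO over WT, where 54.6% were called (30.2% lower and 24.4% higher). In normoxia it again made 5 lower and 1 higher in MIR210-KO over WT, where 44.2% were called (21.6% lower and 22.6% higher), and 5 lower and 0 higher in MIR210HG-KO over WT, where 35.2% were called (19.6% lower and 15.6% higher). All these comparisons at 1 oxygen level share the same 4 WT libraries.

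Set against each other in hypoxia, MIR210HG-KO was above MIR210-KO for VEGFA, STC1, STC2 and VEGFB and below it for VEGFC, and 55.1% of all genes were called (26% higher and 29% lower). In normoxia MIR210HG-KO was above MIR210-KO for VEGFB and below it for STC2 and VEGFC, and 49.2% of all genes were called (23.4% higher and 25.8% lower). The oxygen response differed from that of WT for VEGFA, ADM and STC1 in MIR210-KO, where 26.5% of all genes were called (12.5% higher and 14% lower), and for VEGFA, STC1 and STC2 in MIR210HG-KO, where 22.5% were called (10.2% higher and 12.2% lower). Between the knockouts it differed for VEGFA and STC2, both larger in MIR210HG-KO, where 3.54% of all genes were called (2.03% higher and 1.51% lower). The 707 genes behind that last share numbered 457 without normoxia MIR210-KO 2, 467 without hypoxia MIR210HG-KO 4, 1106 without normoxia MIR210HG-KO 3 and 2144 without all 4 libraries that stood apart.

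VEGFA (ENSG00000112715, chr6:43770184-43786487, plus strand) is the vessel growth factor that signals through KDR and FLT1. In hypoxia it stood at 147, 145, 143 and 137 CPM in MIR210-KO and at 166, 194, 186 and 178 CPM in MIR210HG-KO, against 340, 355, 334 and 362 CPM in WT. In normoxia it stood at 69.7, 73.6, 69.6 and 68.8 CPM in MIR210-KO and at 77.8, 68.8, 71.2 and 68.2 CPM in MIR210HG-KO, against 107, 110, 102 and 105 CPM in WT. Neither knockout overlapped WT at either oxygen level, every hypoxia library was above every normoxia library, and the knockouts overlapped each other in normoxia but not in hypoxia. The hypoxic knockouts, at 143 ± 4.49 CPM for MIR210-KO and 181 ± 12.2 CPM for MIR210HG-KO (SD, n = 4 each), were nearer to normoxic WT (106 ± 3.05 CPM) than to hypoxic WT (348 ± 12.7 CPM).

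The test gave VEGFA a log2 fold change of -1.28 ± 0.05 in MIR210-KO over WT in hypoxia (adjusted p = 1.98e-19) and -0.94 ± 0.05 in MIR210HG-KO over WT (adjusted p = 5.99e-16). In normoxia both were smaller and close together, at -0.59 ± 0.05 and -0.57 ± 0.05 (adjusted p = 9.43e-11 and 4.48e-10). The knockouts differed from each other in hypoxia, with MIR210HG-KO over MIR210-KO at 0.34 ± 0.05 (adjusted p = 1.37e-06), and not detectably in normoxia, at 0.02 with a 95% interval of -0.09 to 0.13. Hypoxia over normoxia was 1.02 ± 0.05 in MIR210-KO and 1.34 ± 0.05 in MIR210HG-KO, against 1.72 ± 0.05 in WT. The difference of these responses was itself called, at -0.69 ± 0.07 for MIR210-KO against WT (adjusted p = 2.05e-08) and -0.38 ± 0.07 for MIR210HG-KO against WT (adjusted p = 0.000385). The response of MIR210HG-KO also exceeded that of MIR210-KO, by 0.32 ± 0.08 (adjusted p = 0.0131), a call that was not made without the low-count filter (0.29, adjusted p = 0.0636). In CPM the mean rise of VEGFA was 72.4 in MIR210-KO and 110 in MIR210HG-KO, against 242 in WT. A non-coding gene annotated on the opposite strand of VEGFA had no count in any library, and gene counts do not separate the splice forms of VEGFA.

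ADM (ENSG00000148926, chr11:10304680-10307397, plus strand) encodes adrenomedullin, which relaxes vessels and seals endothelium through CALCRL and its RAMP partners. Its hypoxia libraries were at 21.0, 18.3, 17.4 and 20.7 CPM in MIR210-KO and 19.9, 24.2, 21.8 and 22.3 CPM in MIR210HG-KO, against 39.5, 41.9, 45.1 and 43.7 CPM in WT. Its normoxia libraries were at 7.10, 6.75, 7.14 and 8.39 CPM in MIR210-KO and 7.95, 6.80, 5.89 and 7.50 CPM in MIR210HG-KO, against 10.8, 11.0, 9.59 and 12.3 CPM in WT. The knockouts overlapped each other at both oxygen levels and overlapped WT at neither. In hypoxia ADM stood at 45.4% of WT in MIR210-KO and 51.8% in MIR210HG-KO, close to the 41.0% and 52.0% of VEGFA.

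In hypoxia the log2 fold change of ADM over WT was -1.14 ± 0.08 in MIR210-KO (adjusted p = 2.74e-13) and -0.95 ± 0.08 in MIR210HG-KO (adjusted p = 2.26e-11). In normoxia it was -0.57 ± 0.10 and -0.64 ± 0.10 (adjusted p = 1.50e-05 and 5.16e-06). ADM rose with lowered oxygen by 1.40 ± 0.09 in MIR210-KO and 1.65 ± 0.09 in MIR210HG-KO, against 1.96 ± 0.09 in WT. The response was smaller in MIR210-KO than in WT, with a difference of -0.56 ± 0.13 (adjusted p = 0.00132). For MIR210HG-KO against WT the difference of -0.31 ± 0.13 was not called (adjusted p = 0.0806), and it was called without normoxia WT 4 (-0.38, adjusted p = 0.0488), without normoxia MIR210HG-KO 3 (-0.39, adjusted p = 0.0313), and without the 4 libraries that stood apart (-0.40, adjusted p = 0.0175). MIR210HG-KO over MIR210-KO in hypoxia, at 0.19 ± 0.08, missed the threshold (adjusted p = 0.061), with a 95% interval of 0.01 to 0.36. It was called without hypoxia MIR210-KO 1 or 4, hypoxia MIR210HG-KO 1, hypoxia WT 3 or normoxia MIR210HG-KO 3 (adjusted p from 0.0235 to 0.0485).

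ADM lies on chromosome 11, where the median gene was lower in MIR210-KO than in WT, at -0.48 in hypoxia and -0.50 in normoxia on the log2 scale. Of its 1042 other tested genes, 638 and 660 were called lower, against 27.7% and 21.6% of all genes. Among the 83 tested genes that start within 5 Mb of ADM the median was -0.45 in hypoxia and -0.44 in normoxia. In normoxia ADM itself (-0.57) was near its neighbours, and in hypoxia it was lower (-1.14). The part of this chromosome-wide shift in the ADM values of MIR210-KO was not tested. In MIR210HG-KO, where ADM was also lower than in WT, the chromosome 11 median was -0.06 in hypoxia and -0.02 in normoxia. For MIR210HG-KO over MIR210-KO the median of the genes within 5 Mb was 0.47 in hypoxia and 0.52 in normoxia, beside 0.19 and -0.06 for ADM.

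The stretch of DNA around RefSeq's ADM start site is shown because ADM rose in all 3 genotypes. All of it lies inside the gene as annotated for the counts. It is the RefSeq promoter window of GRCh38.p14, chr11:10304823-10305122 on the plus strand, from 250 bases before to 50 bases after RefSeq's start, with the HIF core GCGTG in capitals.

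ADM promoter: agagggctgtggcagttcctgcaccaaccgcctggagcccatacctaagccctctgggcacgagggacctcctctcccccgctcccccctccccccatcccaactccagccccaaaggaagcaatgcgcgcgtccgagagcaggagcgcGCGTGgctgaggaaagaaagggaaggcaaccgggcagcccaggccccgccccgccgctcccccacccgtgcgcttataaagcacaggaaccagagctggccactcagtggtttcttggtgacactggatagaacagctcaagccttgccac

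The match starts at base -101 relative to the start site. GCGTG occurs on either strand in 36.5% of the 35116 promoter windows in the table. The other HIF core searched, ACGTG, is not in this window.

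STC1 (ENSG00000159167, chr8:23841915-23854807, minus strand) encodes stanniocalcin-1. Of the 4 oxygen-induced genes it had the lowest level and the largest fold changes over WT and between oxygen levels. In hypoxia it stood at 3.36, 3.40, 3.22 and 3.11 CPM in MIR210-KO and 5.64, 4.86, 5.40 and 6.55 CPM in MIR210HG-KO, against 14.5, 17.0, 15.2 and 17.0 CPM in WT. In normoxia it stood at 0.283, 0.0808, 0.0418 and 0.160 CPM in MIR210-KO and 0.154, 0.192, 0.224 and 0.123 CPM in MIR210HG-KO, against 1.75, 1.73, 1.12 and 1.71 CPM in WT. The 3 hypoxia groups did not overlap, and in normoxia the knockouts overlapped each other and lay far below WT, with 15 counts over the 4 MIR210-KO libraries and 18 over the 4 MIR210HG-KO libraries, against 170 in WT.

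STC1 in MIR210-KO over WT was -2.28 ± 0.13 in hypoxia and -3.39 ± 0.29 in normoxia (adjusted p = 3.01e-16 and 1.56e-11). In MIR210HG-KO over WT it was -1.51 ± 0.12 and -3.15 ± 0.28 (adjusted p = 3.24e-12 and 7.24e-11). Its fold rise with lowered oxygen was larger in the knockouts, at 4.44 ± 0.25 in MIR210-KO and 4.97 ± 0.22 in MIR210HG-KO, against 3.33 ± 0.14 in WT. In CPM the order was the opposite, with a mean rise of 3.13 in MIR210-KO and 5.44 in MIR210HG-KO, against 14.3 in WT. The difference of the fold responses was 1.11 ± 0.35 for MIR210-KO (adjusted p = 0.0173) and 1.64 ± 0.32 for MIR210HG-KO (adjusted p = 0.000354). The call for MIR210-KO was not made without normoxia MIR210-KO 2 (0.92, adjusted p = 0.0748) or without normoxia MIR210-KO 3 (0.82, adjusted p = 0.0915). Between the knockouts, MIR210HG-KO over MIR210-KO was 0.77 ± 0.13 in hypoxia (adjusted p = 7.55e-06) and 0.24 in normoxia, where the 95% interval ran from -0.69 to 1.18.

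STC2 (ENSG00000113739, chr5:173314713-173329503, minus strand), stanniocalcin-2, had 90.1 ± 3.13 CPM per kilobase of gene length in hypoxia WT, against 41.0 ± 0.903 in normoxia WT. Per kilobase it was above the other 5 genes in every group except normoxia MIR210HG-KO, where its 15.3 ± 0.563 CPM per kb lay below the 22.9 ± 4.07 of VEGFB. This order rests on the annotated gene lengths, 14431 bases for VEGFA and 6128 for STC2, which need not match the transcripts present. The hypoxia libraries of STC2 were at 346, 328, 332 and 350 CPM in MIR210-KO and 368, 395, 384 and 417 CPM in MIR210HG-KO, against 532, 540, 573 and 563 CPM in WT. Its normoxia libraries were at 165, 169, 171 and 170 CPM in MIR210-KO and 94.7, 93.8, 89.4 and 97.8 CPM in MIR210HG-KO, against 257, 246, 247 and 255 CPM in WT. No group of STC2 overlapped another, and the knockouts changed places: MIR210HG-KO was the lowest in normoxia and lay above MIR210-KO in hypoxia.

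The log2 fold change of STC2 in MIR210HG-KO over WT was -0.50 ± 0.05 in hypoxia and -1.42 ± 0.05 in normoxia (adjusted p = 1.11e-10 and 4.21e-21). In MIR210-KO over WT it was -0.70 ± 0.05 and -0.57 ± 0.05 (adjusted p = 2.49e-14 and 8.33e-12). MIR210HG-KO over MIR210-KO was 0.21 ± 0.05 in hypoxia (adjusted p = 0.000326) and -0.85 ± 0.05 in normoxia (adjusted p = 5.89e-16). Its rise with lowered oxygen was 1.00 ± 0.05 in MIR210-KO and 2.06 ± 0.05 in MIR210HG-KO, against 1.14 ± 0.05 in WT. The response of MIR210HG-KO exceeded that of WT by 0.92 ± 0.07 (adjusted p = 9.73e-12) and that of MIR210-KO by 1.05 ± 0.07 (adjusted p = 3.73e-12), while MIR210-KO and WT differed by -0.13 with a 95% interval of -0.27 to 0.0030 (adjusted p = 0.145). In CPM the mean rise was 170 ± 5.65 in MIR210-KO and 297 ± 10.5 in MIR210HG-KO, against 301 ± 9.97 in WT (SE of the difference), so the larger fold in MIR210HG-KO came with a lower start and a rise in CPM near that of WT.

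The STC2 promoter window (chr5:173328365-173328664, minus strand, same table and build, written 5′ to 3′ on the gene's strand) is shown because it holds several HIF cores close together. All of this window lies inside the gene as annotated for the counts. Capitals mark GCGTG on either strand, which reads CACGC on the opposite one.

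STC2 promoter: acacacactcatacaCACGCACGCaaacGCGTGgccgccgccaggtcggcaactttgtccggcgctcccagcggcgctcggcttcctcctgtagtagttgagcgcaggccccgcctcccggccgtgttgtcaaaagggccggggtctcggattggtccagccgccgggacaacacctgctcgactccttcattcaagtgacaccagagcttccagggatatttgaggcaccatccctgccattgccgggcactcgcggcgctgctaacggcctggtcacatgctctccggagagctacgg

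The 3 matches start at bases -235, -231 and -222, and the first 2 overlap by 1 base. Of all windows, 10.1% hold 3 or more matches of ACGTG or GCGTG. The core of the C/EBP-ATF element, TGATGNAA, which occurs in 3.62% of windows on either strand, is in none of the 4 windows held here (ADM, STC2, VEGFB and VEGFC), and neither is the ER stress element, CCAAT and CCACG with 9 bases between them (0.0769% of windows). VEGFA and STC1 are not in the promoter table.

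**Figure D2:**
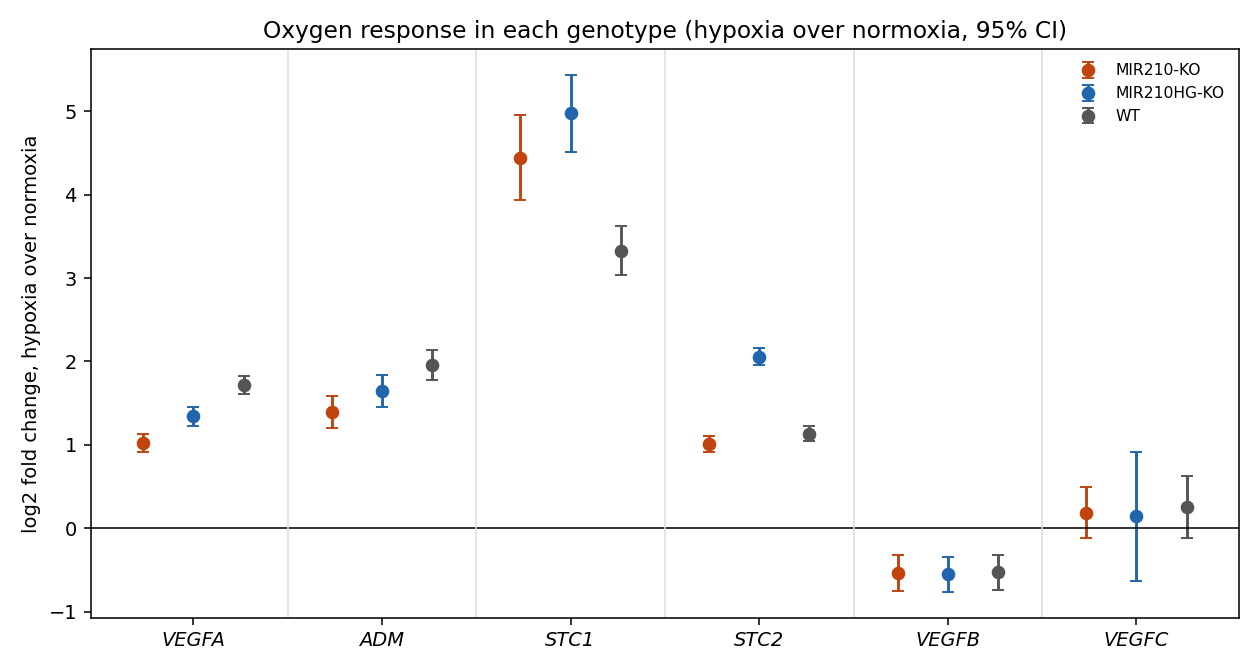
Log2 fold change of hypoxia over normoxia in each genotype, with 95% intervals. For VEGFA and ADM both knockouts lie below WT, for STC1 both lie above it, and for STC2 MIR210HG-KO (2.06) lies above MIR210-KO (1.00) and WT (1.14).

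VEGFB (ENSG00000173511, chr11:64234538-64238793, plus strand), a FLT1 ligand, moved against the 4 oxygen-induced genes. In hypoxia it stood at 16.3, 13.7, 14.96 and 17.0 CPM in MIR210-KO and 21.1, 24.1, 27.8 and 23.1 CPM in MIR210HG-KO, against 26.0, 20.002, 25.2 and 22.3 CPM in WT. In normoxia it stood at 20.3, 22.7, 23.3 and 23.5 CPM in MIR210-KO and 37.6, 40.02, 26.0 and 37.6 CPM in MIR210HG-KO, against 35.8, 34.0, 30.9 and 34.1 CPM in WT. MIR210-KO lay below both other genotypes at each oxygen level, and MIR210HG-KO and WT overlapped.

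Hypoxia over normoxia was nearly the same log2 value for VEGFB in the 3 genotypes, at -0.54 ± 0.11 in MIR210-KO and -0.55 ± 0.10 in MIR210HG-KO, against -0.53 ± 0.10 in WT (adjusted p = 7.72e-05, 2.94e-05 and 4.06e-05). The 3 differences between these responses were -0.01, -0.02 and -0.02, with 95% intervals within -0.32 to 0.29. Hypoxia and normoxia libraries overlapped only in MIR210HG-KO, where normoxia library 3 (26.0 CPM) was below the highest hypoxia library (27.8 CPM). With the balance of long and short genes as a covariate the oxygen effect was no longer called in MIR210-KO (-0.32, adjusted p = 0.0575) or MIR210HG-KO (-0.31, adjusted p = 0.0904). That balance was itself mostly higher in hypoxia than in normoxia, so the covariate overlaps with oxygen. Among the 252 tested genes within 5 Mb of VEGFB, a gene-dense stretch, the median oxygen response was also below 0, at -0.41 in MIR210-KO and -0.38 in MIR210HG-KO, against -0.29 in WT.

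VEGFB in MIR210-KO over WT was -0.59 ± 0.11 in hypoxia and -0.59 ± 0.10 in normoxia (adjusted p = 1.47e-05 and 2.23e-05). Those values lie close to the medians of its neighbours within 5 Mb, -0.54 and -0.52, and of chromosome 11, -0.48 and -0.50, and a change of VEGFB apart from that of its chromosome was not tested. In MIR210HG-KO over WT it was 0.04 ± 0.10 in hypoxia and 0.06 ± 0.10 in normoxia, neither of them called. Without the 4 libraries that stood apart, of which 1 is normoxia MIR210HG-KO 3, the normoxia value was 0.19 and called (adjusted p = 0.0387). MIR210HG-KO was above MIR210-KO by 0.63 ± 0.11 in hypoxia and 0.65 ± 0.10 in normoxia (adjusted p = 5.78e-06 and 3.47e-06), beside chromosome 11 medians of 0.48 and 0.50.

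The VEGFB window (chr11:64234334-64234633, plus strand) is shown beside the other promoters because VEGFB fell in hypoxia while its window also holds the core, in capitals at base -61.

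VEGFB promoter: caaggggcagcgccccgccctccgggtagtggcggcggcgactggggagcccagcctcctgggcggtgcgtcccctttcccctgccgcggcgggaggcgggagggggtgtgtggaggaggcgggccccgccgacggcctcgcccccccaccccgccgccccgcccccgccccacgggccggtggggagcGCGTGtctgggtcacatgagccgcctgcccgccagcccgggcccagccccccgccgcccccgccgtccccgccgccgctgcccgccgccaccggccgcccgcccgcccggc

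The window of VEGFC also has 1 GCGTG, on the opposite strand, so a single core was found in windows of genes that rose (ADM), fell (VEGFB) and were not called (VEGFC) in hypoxia.

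VEGFC (ENSG00000150630, chr4:176683538-176792727, minus strand), the growth factor of lymphatic vessels, separated the genotypes at both oxygen levels. In hypoxia it stood at 8.46, 7.78, 7.51 and 9.03 CPM in MIR210-KO and 0.0829, 0.524, 0.268 and 0.427 CPM in MIR210HG-KO, against 2.82, 2.05, 2.47 and 2.29 CPM in WT. In normoxia it stood at 6.96, 7.07, 7.39 and 7.43 CPM in MIR210-KO and 0.309, 0.192, 0.447 and 0.164 CPM in MIR210HG-KO, against 2.22, 2.09, 1.59 and 2.15 CPM in WT. The 3 genotypes were fully apart at both oxygen levels, with MIR210-KO at 340% and 358% of WT in hypoxia and normoxia, and MIR210HG-KO at 13.5% and 13.8%.

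VEGFC in MIR210-KO over WT was 1.77 ± 0.16 in hypoxia and 1.84 ± 0.17 in normoxia (adjusted p = 4.05e-11 and 1.76e-10). In MIR210HG-KO over WT it was -2.94 ± 0.24 and -2.83 ± 0.28 (adjusted p = 9.55e-12 and 8.80e-10). Between the knockouts the gap was the widest of the 6 genes, with MIR210HG-KO over MIR210-KO at -4.71 ± 0.22 in hypoxia and -4.66 ± 0.24 in normoxia (adjusted p = 4.99e-18 and 6.00e-17). Between the oxygen levels the libraries were apart in MIR210-KO, the lowest hypoxia library (7.51 CPM) lying just above the highest normoxia library (7.43 CPM), and overlapped in MIR210HG-KO and in WT. The oxygen response was not called in any genotype, at 0.18 in MIR210-KO and 0.14 in MIR210HG-KO, against 0.25 in WT, with adjusted p = 0.297, 0.779 and 0.243. The interval in MIR210HG-KO, -0.63 to 0.92, comes from 40 counts in hypoxia and 29 in normoxia over 4 libraries each.

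The neighbourhood of VEGFC also moved in MIR210HG-KO. Of 21 tested genes that start within 5 Mb of it, 19 were called lower and 0 higher in hypoxia, and 15 lower and 0 higher in normoxia. Their medians were -0.69 and -0.75, while the chromosome 4 medians were -0.14 and -0.07. Of all genes, 30.2% were called lower in hypoxia and 19.6% in normoxia. VEGFC itself was lower than every one of the 21 in both comparisons. In MIR210-KO over WT the same 21 genes had a median of 0.40 in hypoxia and 0.14 in normoxia. The part of the neighbourhood in the VEGFC values was not tested. A non-coding gene on the opposite strand inside VEGFC had at most 11 counts in any library, and the strand setting of the counting is not given in the sources used here.

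**Figure D3:**
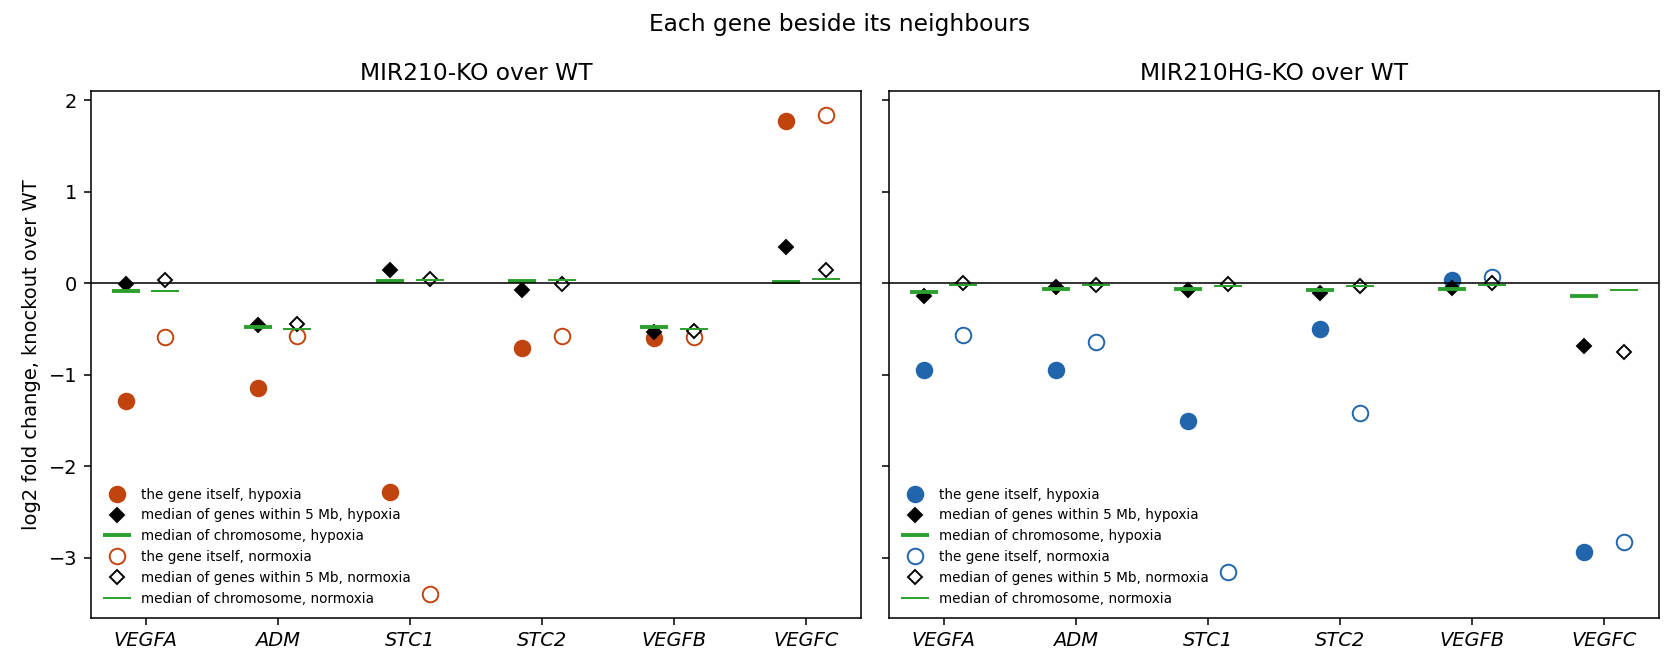
Log2 fold change of each gene over WT (circles) beside the median of tested genes starting within 5 Mb (diamonds) and of its chromosome (bars), with filled symbols and thick bars for hypoxia and open symbols and thin bars for normoxia. VEGFB and, in normoxia, ADM lie near their neighbours in MIR210-KO, and the neighbours of VEGFC are low in MIR210HG-KO. VEGFA, STC1 and STC2 lie below the medians of their neighbours, which are between -0.13 and 0.14. The share of neighbours lower than the gene, over both knockouts and both oxygen levels, was 0% to 2.67% for STC1. This share was 1.04% to 11.5% for VEGFA and 1.15% to 21.8% for STC2, each highest in MIR210HG-KO.

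**Figure D4:**
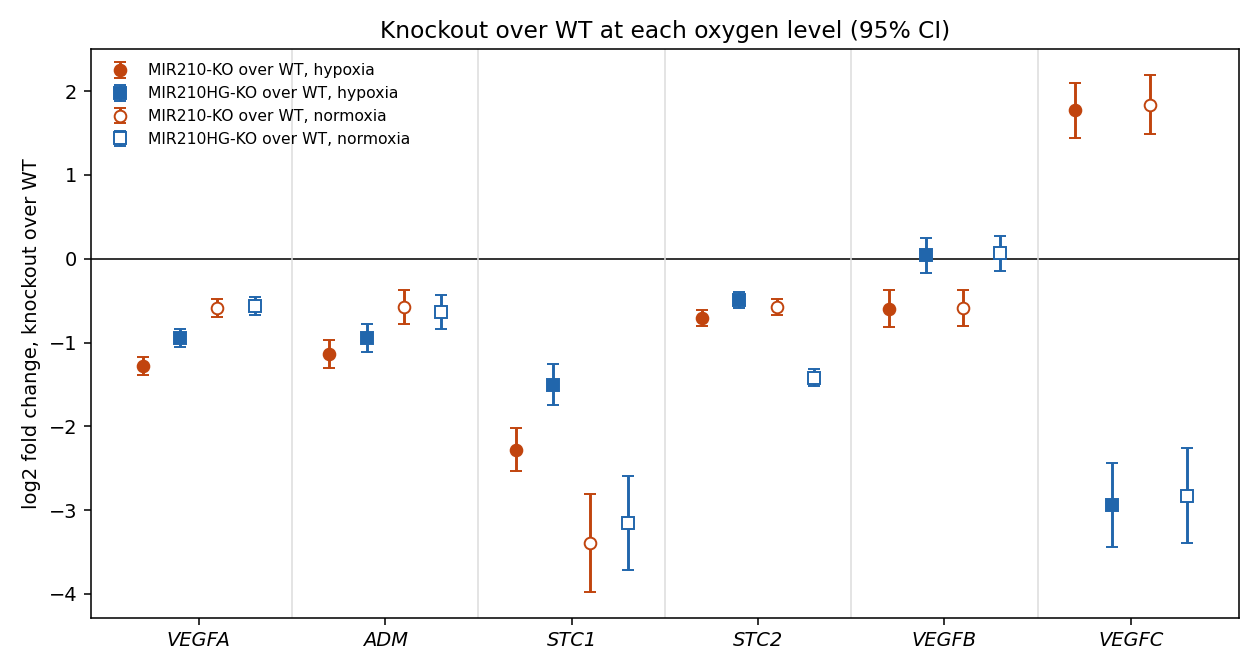
Log2 fold change of MIR210-KO (circles) and MIR210HG-KO (squares) over WT with 95% intervals, filled in hypoxia and open in normoxia. VEGFA, ADM, STC1 and STC2 are below 0 in all 4 comparisons, and VEGFC lies on opposite sides of 0 in the knockouts.

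The order of the groups from high to low was the same for VEGFA and STC1: hypoxia WT, hypoxia MIR210HG-KO, hypoxia MIR210-KO, normoxia WT, normoxia MIR210HG-KO and normoxia MIR210-KO. The last pair did not differ beyond their spread for either gene. ADM and STC2 had the same first 4 groups in the same order, with the normoxia knockouts reversed, a pair that differed for STC2 and not detectably for ADM (-0.06, 95% interval -0.28 to 0.15). For ADM the hypoxia knockouts also did not pass the threshold against each other. VEGFB ran from normoxia MIR210HG-KO and normoxia WT, which did not differ detectably, through hypoxia MIR210HG-KO and hypoxia WT, which did not either, to normoxia MIR210-KO, whose libraries lay within the range of hypoxia WT, and hypoxia MIR210-KO. VEGFC ran from MIR210-KO through WT to MIR210HG-KO, with the hypoxia group above the normoxia group within each genotype and none of those pairs called.

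Over the 24 libraries the log2 CPM of VEGFA followed that of ADM (Pearson r = 0.984), STC1 (r = 0.953) and STC2 (r = 0.913), and not that of VEGFB (r = -0.330) or VEGFC (r = 0.0174). These values describe 24 points that fall into 6 clusters and share their libraries. Leaving the 6 genes themselves out, the protein-coding genes with a mean of at least 5 CPM that were most like VEGFA were NAMPT (0.984), an enzyme of NAD synthesis, DDIT3 (0.984), the stress-response factor CHOP, and BTG1 (0.981). Those most like ADM were the immediate-early gene FOS (0.985), the glucose transporter SLC2A1 (0.978) and the lipid droplet protein HILPDA (0.976). STC1 was most like SPAG4 (0.962), ZC3H6 (0.960) and JRKL (0.958), and STC2 most like SPRY1 (0.952), NRN1 (0.948) and DDIT4 (0.947). VEGFB was most like VPS51 (0.972), MBOAT7 (0.970) and DNPEP (0.970), and VEGFC most like REEP2 (0.978), TENM1 (0.977) and DNAJC6 (0.975).

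The receptors of the VEGF ligands were read from a list of 7 genes, PGF, VEGFD, FLT1, KDR, FLT4, NRP1 and NRP2. KDR, the main signalling receptor of VEGFA, averaged 0.239 to 0.393 CPM over the groups. FLT4, the VEGFC receptor, was at 115 ± 2.64 CPM in MIR210-KO and 60.5 ± 2.41 CPM in MIR210HG-KO, against 68.7 ± 1.33 CPM in WT, in hypoxia. It was higher in MIR210-KO than in WT (0.74 ± 0.06 in hypoxia and 0.53 ± 0.06 in normoxia), the genotype with the most VEGFC, and lower in MIR210HG-KO (-0.18 ± 0.06 in hypoxia and -0.40 ± 0.06 in normoxia). FLT1, which binds VEGFA, VEGFB and PGF, was lower in MIR210-KO (-1.16 ± 0.07 in hypoxia and -1.46 ± 0.08 in normoxia). PGF, placental growth factor, rose in MIR210-KO with lowered oxygen, to 32.1 ± 5.71 CPM in hypoxia against 16.0 ± 1.11 CPM in normoxia, and in hypoxia it was above WT by 1.22 ± 0.10. In MIR210HG-KO it stood at 19.4 ± 2.40 CPM in hypoxia and 15.4 ± 1.61 CPM in normoxia, against 13.8 ± 0.828 and 13.9 ± 0.736 CPM in WT. Of the 7 genes, 3 were called higher and 1 lower in MIR210-KO over WT in hypoxia and 2 and 2 in normoxia. In MIR210HG-KO over WT, 2 were called higher and 2 lower in hypoxia and 0 and 3 in normoxia. Of all genes, 28.2% were called higher and 27.7% lower in MIR210-KO over WT in hypoxia, and 22.6% and 21.6% in normoxia. In MIR210HG-KO over WT these shares were 24.4% and 30.2% in hypoxia, and 15.6% and 19.6% in normoxia.

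For the adrenomedullin system, 6 of 8 listed genes could be tested, RAMP3 and ACKR3 being too low. ADM2, which encodes the related peptide intermedin, was lower in MIR210HG-KO, at -1.81 ± 0.12 in hypoxia and -2.83 ± 0.14 in normoxia, and lower in MIR210-KO in hypoxia (-0.80 ± 0.11). The receptor partner RAMP1 was higher than WT in MIR210-KO (1.04 ± 0.12 in hypoxia and 0.29 ± 0.11 in normoxia) and lower in MIR210HG-KO (-0.39 ± 0.13 and -0.59 ± 0.12). CALCRL, the receptor itself, averaged 1.29 to 2.36 CPM over the groups. In hypoxia 3 of the 6 were called higher and 2 lower in MIR210-KO over WT, and 1 higher and 3 lower in MIR210HG-KO over WT. In normoxia these were 2 higher and 0 lower, and 0 higher and 2 lower. Of all genes, 55.9% and 54.6% were called in these comparisons in hypoxia, and 44.2% and 35.2% in normoxia.

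For the axis on which the stanniocalcins act, 9 of 12 listed genes were tested, since IGF1 and IGFBP1 were too low and IGF2 had 2 rows and was left out. The proteases PAPPA and PAPPA2, which stanniocalcins inhibit, averaged 0.0869 to 0.677 CPM over the groups. IGFBP5, one of their substrates, was higher in MIR210HG-KO (1.02 ± 0.06 in hypoxia and 0.30 ± 0.06 in normoxia) and lower in MIR210-KO in normoxia (-1.06 ± 0.06). IGF2R, which clears IGF2, was higher in both knockouts in hypoxia (1.02 ± 0.08 in MIR210-KO and 0.56 ± 0.08 in MIR210HG-KO). In hypoxia 2 of the 9 were called higher and 0 lower in MIR210-KO, and 3 higher and 1 lower in MIR210HG-KO, both over WT. In normoxia these were 2 and 1, and 1 and 1. Of all genes, 55.9% and 54.6% were called in these comparisons in hypoxia, and 44.2% and 35.2% in normoxia.

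Among 16 other secreted factors known from hypoxia, 11 were tested. Hypoxia raised 8 of them in MIR210-KO and 5 in MIR210HG-KO, against 5 in WT, and lowered 0 in any genotype. Of all genes, it raised 29.3% in MIR210-KO and 25.7% in MIR210HG-KO, against 29.6% in WT, and lowered 29.5%, 28.3% and 30.7%. INHBA, a subunit of activin A, and LOX, the collagen cross-linking oxidase, had the largest responses of the list in WT (4.46 ± 0.25 and 2.37 ± 0.07). INHBA was lower than WT in hypoxia in both knockouts (-4.17 ± 0.24 in MIR210-KO and -1.61 ± 0.19 in MIR210HG-KO). The fold response of LOX was smaller than that of WT in MIR210-KO (-0.78 ± 0.10) and larger in MIR210HG-KO (0.60 ± 0.10). From normoxia to hypoxia LOX went from 24.4 to 73.0 CPM in MIR210-KO and from 7.43 to 58.3 CPM in MIR210HG-KO, against 17.9 to 92.6 CPM in WT.

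Genes inside the cell that HIF is known to induce rose in hypoxia in all genotypes, 13 of 13 tested, with a median log2 response of 1.70 in MIR210-KO and 1.66 in MIR210HG-KO, against 1.72 in WT. The medians over all genes were 0.04, 0.03 and 0.0020, and 29.3%, 25.7% and 29.6% of all genes were called higher. Against the oxygen response of WT, that of 6 of the 13 was called lower and of 0 higher in MIR210-KO. In MIR210HG-KO it was called lower for 5 and higher for 5. Over all genes, 14% of these differences were called lower and 12.5% higher in MIR210-KO, and 12.2% and 10.2% in MIR210HG-KO. Against 27.7% of all genes lower and 28.2% higher, 11 of the 13 were called lower and 1 higher in MIR210-KO over WT in hypoxia (median -0.57). Against 30.2% of all genes lower and 24.4% higher, 6 of the 13 were called lower and 4 higher in MIR210HG-KO over WT in hypoxia (median -0.09). The largest changes were in NDRG1 (-1.69 ± 0.06 and -1.97 ± 0.06) and HK2, a hexokinase (-1.53 ± 0.07 and -1.39 ± 0.07), and in MIR210HG-KO in ANKRD37 (-2.23 ± 0.12). VEGFA, ADM, STC1 and STC2 were all below the list's median in both knockouts in hypoxia. In normoxia 9 of the 13 listed genes were called lower and 1 higher in MIR210-KO over WT (median -0.25). In MIR210HG-KO over WT in normoxia 11 were called lower and 1 higher (median -0.35). Of all genes in normoxia, 21.6% were called lower and 22.6% higher in MIR210-KO, and 19.6% and 15.6% in MIR210HG-KO.

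Genes of the integrated stress response, which ATF4 drives, were lower in the knockouts almost throughout. In hypoxia 13 of 14 were called lower and 1 higher in MIR210-KO over WT (median -1.71), and 14 of 14 lower in MIR210HG-KO over WT (median -1.35). Of all genes, 27.7% and 30.2% were called lower in these 2 comparisons. In normoxia, where 21.6% of all genes were called lower in MIR210-KO and 19.6% in MIR210HG-KO, all 14 listed genes were lower in each. Their medians were -0.90 in MIR210-KO and -1.43 in MIR210HG-KO. Among them were ATF3 (-3.21 ± 0.07 in MIR210-KO and -2.42 ± 0.07 in MIR210HG-KO in hypoxia) and TRIB3 (-2.64 ± 0.07 and -2.09 ± 0.07). The values of STC2 were -0.57 (MIR210-KO) and -1.42 (MIR210HG-KO) in normoxia, and -0.70 and -0.50 in hypoxia. Any link between the list and STC2 was not tested.

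Chaperones and other genes of the unfolded protein response had lower oxygen responses than WT in both knockouts, with 9 of 10 differences called in each and 0 of them above WT. Over all genes, 26.5% of these differences were called in MIR210-KO (14% lower) and 22.5% in MIR210HG-KO (12.2% lower). The list's median response was below 0 in MIR210-KO (-0.44), with 3 genes called higher and 6 lower in hypoxia over normoxia. The median was 0.22 in MIR210HG-KO, with 5 higher and 4 lower, against 0.95 in WT, with 8 higher and 2 lower. Hypoxia raised 29.3% of all genes and lowered 29.5% in MIR210-KO. These shares were 25.7% and 28.3% in MIR210HG-KO, and 29.6% and 30.7% in WT. In hypoxia 10 of 10 were called lower in MIR210-KO over WT (median -1.43) and 8 lower and 1 higher in MIR210HG-KO over WT (median -0.98), among them the chaperone HSPA5 (-2.79 ± 0.06 and -2.05 ± 0.06) and HERPUD1 (-2.73 ± 0.07 and -2.10 ± 0.07). In normoxia 5 were called lower and 0 higher in MIR210-KO, and 3 lower and 3 higher in MIR210HG-KO. All genes tested had medians of 0.02 (MIR210-KO) and -0.03 (MIR210HG-KO) in hypoxia, with 27.7% and 30.2% called lower. In normoxia 21.6% and 19.6% of them were called lower.

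**Figure D5:**
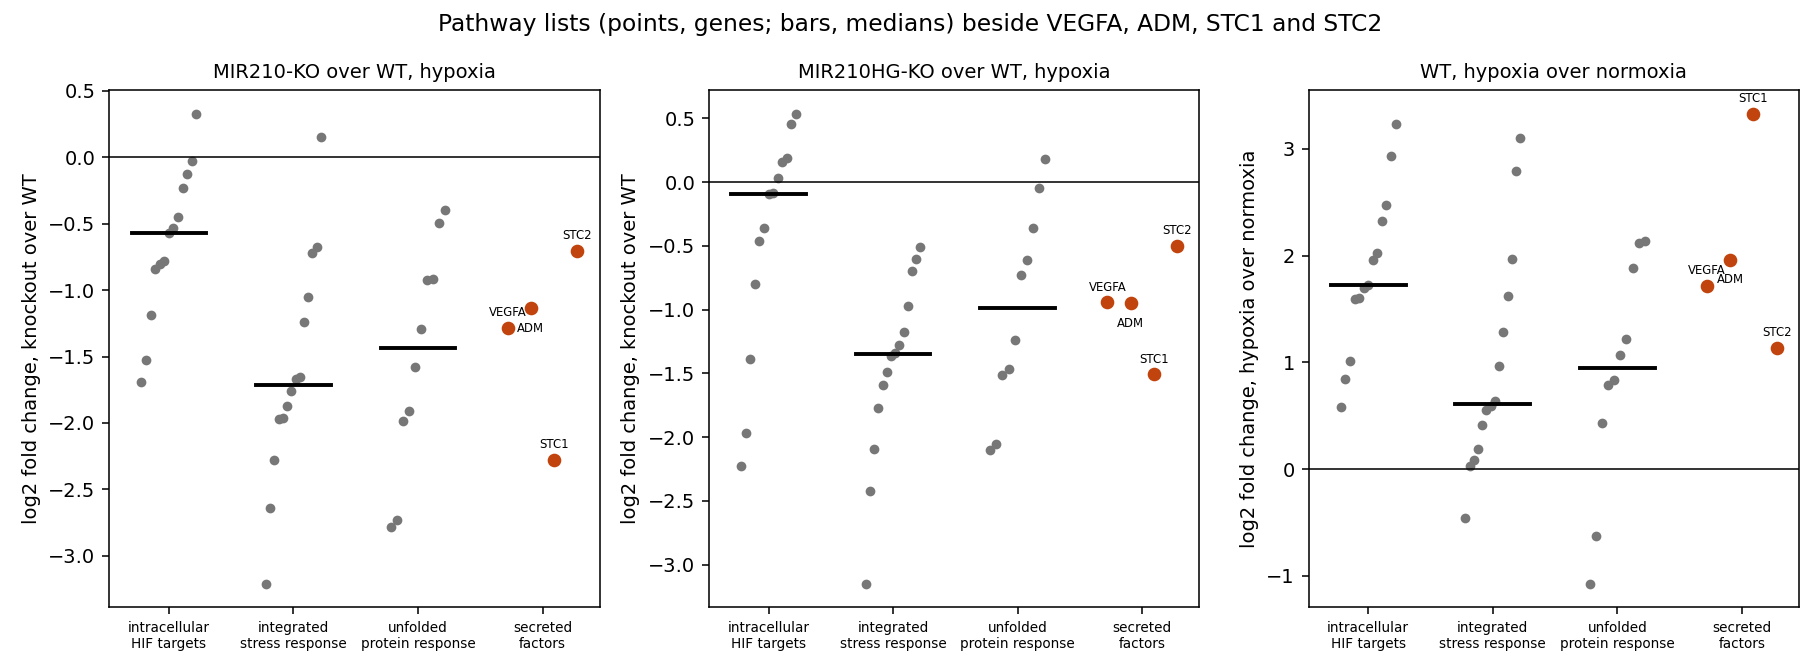
Log2 fold change of the genes of 3 pathway lists (grey points, medians as bars) beside VEGFA, ADM, STC1 and STC2 for MIR210-KO over WT and MIR210HG-KO over WT in hypoxia, and for hypoxia over normoxia in WT. The knockout medians of the stress-response list (-1.71 and -1.35) and of the unfolded protein response list (-1.43 and -0.98) are lower than those of the intracellular HIF targets (-0.57 and -0.09).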

How the data were processed

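Gene-level mRNA levels were analysed from 24 HEK293T libraries. Per the labels' protocols, TRIzol was used for RNA and a NEBNext Ultra RNA kit for the libraries. The authors deposited raw read counts per gene in 2 tables, one per oxygen level. The submitters' processing notes name edgeR 3.24.3, DESeq2 1.20.0, STAR 2.6.1d, featureCounts 1.5.0-p3 and the GRCh38 build, with no roles. The annotation release and strand setting are not given in the sources used here. Every sample column was used.

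The counts went into edgeR 4.0.16 (R 4.3.3): filterByExpr over the 6 groups, TMM factors, and a single quasi-likelihood fit of 6 group means. The 12 contrasts (9 between groups, 3 differences of oxygen responses) were tested with two-sided F tests, adjusted by Benjamini-Hochberg over all genes. The script was tested on simulated counts. CPM used TMM-scaled library sizes, and correlations used log2 CPM with a prior count of 2. Alternatives were RLE and upper quartile factors, DESeq2 1.42.0, other low-count filters, fits of only the groups compared, a block for the replicate number, a covariate for long (8000 bases or more) and short (1500 or fewer) genes, removal of the mitochondrial genome, and leaving out 4 libraries that stood apart (hypoxia WT 1 and 3, hypoxia MIR210-KO 1, normoxia MIR210HG-KO 3) or each library in turn. Depth limits the precision for STC1 in normoxic knockouts and VEGFC in MIR210HG-KO. Libraries of a group differed by more than sampling noise. In hypoxia WT, library 1 was most like 3, and 2 most like 4. Leaving out 1 and 3 kept libraries 2 and 4 alone in that group.

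The 6 genes, the 7 lists, the tests and the alternatives were chosen with earlier results of these data known. The text names the 6 genes throughout, up to 3 called genes of a list per contrast with the largest change, and the 3 most alike genes of each; receptors and proteases named for their role (KDR, CALCRL, PAPPA, PAPPA2) were added after their values were seen. Promoter and microRNA sequences are from RefSeq (4 of the 6 genes matched), and 3' UTRs from GENCODE.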

Additional observations from a re-analysis of the deposited data

Results flagged for a closer look

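Of 36 sets of 4 libraries (6 genes in 6 groups), 1 had a library far from the other 3. STC1 in normoxia WT replicate 3 stood at 1.12 CPM, against 1.71 to 1.75 CPM in the other WT libraries. Chance alone gives about 1 such set in 20.

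Of the 18 tests of whether a gene's oxygen response differed between genotypes, 8 were called. Over all genes, 26.5% of such differences were called for MIR210-KO against WT, 22.5% for MIR210HG-KO against WT and 3.54% between the knockouts. The difference between the knockouts follows from the differences against WT, so the 18 tests are not independent. For VEGFA the differences were -0.69 (MIR210-KO against WT), -0.38 (MIR210HG-KO against WT) and 0.32 (MIR210HG-KO against MIR210-KO). For ADM the difference was -0.56 (MIR210-KO against WT). For STC1 they were 1.11 (MIR210-KO against WT) and 1.64 (MIR210HG-KO against WT). For STC2 they were 0.92 (MIR210HG-KO against WT) and 1.05 (MIR210HG-KO against MIR210-KO).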

How the results depend on the processing

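The 6 genes in 12 contrasts gave 72 results. Under 10 settings other than leaving out 1 library, 695 of 718 values kept their direction and their side of the threshold, and the 13 that turned sign were not called to begin with. Leaving out each library in turn kept 1679 of 1728. The cause of each change below was not tested.

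With upper quartile factors, VEGFA in MIR210HG-KO over MIR210-KO in normoxia was -0.0074, and the VEGFB response differences against WT were 0.043 (MIR210-KO) and 0.020 (MIR210HG-KO). These factors moved the all-gene median oxygen response by 0.14 in both knockouts, and the called genes split into 7770 higher and 4348 lower in MIR210-KO (5836 and 5878 with TMM), 7074 and 4164 in MIR210HG-KO (5135 and 5653), and 2545 and 2018 for the response of MIR210HG-KO against WT (2045 and 2441). Without a low-count filter, the VEGFA response of MIR210HG-KO exceeded that of MIR210-KO by 0.29 and was not called. The VEGFB response of MIR210-KO against WT was 0.015 without the filter and 0.00070 with at least 1 CPM in 4 libraries. With the covariate for long and short genes, the VEGFB oxygen response was -0.32 in MIR210-KO and -0.31 in MIR210HG-KO, neither called, and its response differences were 0.048 (MIR210-KO) and 0.059 (MIR210HG-KO) against WT and 0.011 between knockouts.

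Without the 4 libraries that stood apart, VEGFB in MIR210HG-KO over WT in normoxia was 0.19 and called, its response difference for MIR210-KO was 0.11, those of VEGFC were 0.062 (MIR210-KO against WT), 0.36 (MIR210HG-KO against WT) and 0.30 (between the knockouts), and ADM in MIR210HG-KO over MIR210-KO in normoxia was 0.012. The ADM response of MIR210HG-KO against WT was then -0.40 and called, with libraries 2 and 4 alone in hypoxia WT. ADM in MIR210HG-KO over MIR210-KO in hypoxia was called with RLE factors (0.22), DESeq2 (0.22), the compared groups alone (0.20) and without the 4 libraries (0.23). Of all genes, 707 were called for a response difference between the knockouts, against 2144 without the 4 libraries, 1412 with the covariate and 1083 with DESeq2.

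Same-numbered libraries of different groups had correlations of deviations from -0.11 to 0.12, so the numbers were not taken to pair them. With the replicate block, ADM in MIR210HG-KO over MIR210-KO in hypoxia was 0.19 and called, and no other call of the 6 genes changed.

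Leaving out 1 library at a time, MIR210HG-KO over MIR210-KO ran from -0.0097 to 0.049 for VEGFA, -0.12 to 0.011 for ADM and -0.036 to 0.86 for STC1 in normoxia, and from 0.14 to 0.25 for ADM in hypoxia. VEGFB in MIR210HG-KO over WT in hypoxia ran from -0.036 to 0.11, and the VEGFC oxygen response in MIR210HG-KO from -0.18 to 0.49. Response differences of MIR210-KO against WT ran from -0.077 to 0.050 for VEGFB, -0.14 to 0.019 for VEGFC and 0.82 to 1.71 for STC1. Those of MIR210HG-KO against WT ran from -0.14 to 0.041 for VEGFB, -0.43 to 0.24 for VEGFC and -0.39 to -0.26 for ADM. Those between the knockouts ran from -0.13 to 0.055 for VEGFB, -0.35 to 0.32 for VEGFC and -0.071 to 0.82 for STC1. The genes called between the knockouts' responses numbered 457 (without normoxia MIR210-KO 2) to 1106 (without normoxia MIR210HG-KO 3), and 467 without hypoxia MIR210HG-KO 4. Of 1680 list counts, 99 moved by over 1.5 times. Depth limits STC1 in the normoxic knockouts and VEGFC in MIR210HG-KO, where 15 to 40 counts stand behind a group.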
